A study of Mus musculus with 32 samples.

Results

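Transcript levels of 10 genes of the Wnt/β-catenin pathway were followed through 32 RNA-seq libraries of E14, a mouse embryonic stem cell line. The genes were taken by name from the 5 deposited tables: the secreted inhibitors Dkk1 and Notum, the intracellular feedback inhibitors Axin2 and Nkd1, the ligands Wnt3 and Wnt9a, the transcription factors Lef1 and Tcf7, and the target genes Sp5 and Cdx1. They are 10 of the 17440 genes listed in any table. They were chosen by measured values of these same libraries, with Dkk1 first. The values known at that point were the rise of Dkk1 at 24 h in the CTCF AID cells and with IAA in the overexpression control, its smaller rise with wild-type CTCF, and the fall of Cdx1 at 12 h in the RAD21 AID cells. Those values are given as description, without a test. Counts of called members include them, and no count or median over the 10 genes is support for a change of the pathway.

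All cells were E14 with an auxin-inducible degron (AID), a tag that lets an auxin trigger destruction of the tagged protein. RAD21 AID cells (RAD21 is a cohesin subunit) were given 1 μM of 5-Ph-IAA, an IAA analogue, for 0, 12 or 24 h. In all other groups the genotype was CTCF AID (CTCF binds DNA and anchors chromatin loops), and the auxin, where given, was 500 μM indole-3-acetic acid (IAA). No cells without a degron were given auxin, so effects of degradation and of the compound itself cannot be told apart. CTCF AID cells were sampled at 0, 12 and 24 h, and in a serum condition at 0 and 12 h. Further CTCF AID cells carried a control hairpin or a hairpin against Chd4, the ATPase of the NuRD chromatin remodelling complex, and for these the labels give no auxin. The last set of CTCF AID cells overexpressed a control, wild type CTCF or mutated CTCF (the mutation is not named), each without and with IAA. Each of the 16 groups had 2 libraries, numbered 1 and 2. The labels do not say that they came from separate cultures, so p-values measure only the spread between these libraries.

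The medium matters for these genes. Per the labels it held LIF, 1 μM PD0325901 (an inhibitor of MEK) and 3 μM CHIR99021, an inhibitor of the kinase GSK3 that itself activates Wnt/β-catenin signalling. The same serum-free medium is given for the libraries labelled serum, so what those cells grew in is uncertain. In the overexpression set, the titles and the treatment labels disagree for 4 libraries. The 2 whose titles name mutated CTCF and no IAA carry a treatment label of 12 h IAA, and the 2 whose titles name wild-type CTCF and IAA carry a label of no IAA. Groups follow the titles here, and every value for these 4 libraries depends on that.

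In this pathway a Wnt ligand bound to Frizzled and LRP receptors stops the destruction complex, of which Axin proteins and GSK3 are parts, from removing β-catenin. β-catenin then enters the nucleus and acts with TCF/LEF factors on target genes. Several targets are themselves brakes: Axin2 rebuilds the destruction complex, Nkd1 acts on Dishevelled, Notum removes a lipid from Wnt ligands, and Dkk1 blocks LRP receptors. In mouse embryonic stem cells, GSK3 inhibition supports self-renewal, and targets such as Cdx1 and T belong to the programme of the primitive streak.

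Library totals lay between 15364584 and 19642332 normalised counts, and the values are the authors' normalised counts throughout. All 8 embryonic stem cell markers were listed in each of the 5 tables, with summed levels of 57280 to 127614 per library. The Chd4 hairpin libraries held 3379 and 3729 of Chd4 itself, against 9923 and 9526 with the control hairpin. Ctcf mRNA was 9378 ± 146 (SD, n = 2) when wild-type CTCF was added and 9650 ± 87.1 for the mutated form, against 4233 ± 140 in the overexpression control. The degrons act on protein, which was not measured here.

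RefSeq (GRCm38.p6) gave promoter windows for 8 of the 10 genes. Cdx1 and Notum had no entry. The 250 bases before each start were searched on both strands for the TCF/LEF words CTTTGAT and CTTTGAA and for CCNNNAGNNGGC, a core of the CTCF motif. The sequences with a match are shown because TCF/LEF factors and CTCF are the factors these comparisons turn on. They run 5′ to 3′ along the gene's strand, with the matched word in capitals. Sp5 is given for its whole window (chr2:70474673-70474922, plus strand), and the others for 30 bases around the word: Dkk1 at chr19:30549596-30549625 (minus strand), Axin2 at chr11:108920205-108920234 (plus strand) and Lef1 at chr3:131110217-131110246 (plus strand).
Sp5: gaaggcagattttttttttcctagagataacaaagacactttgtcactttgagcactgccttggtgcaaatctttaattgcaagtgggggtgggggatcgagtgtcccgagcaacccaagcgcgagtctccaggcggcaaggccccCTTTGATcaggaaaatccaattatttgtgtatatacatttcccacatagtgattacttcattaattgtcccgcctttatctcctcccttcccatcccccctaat
Dkk1: ctcctcccaaagCTTTGAAatcccatcccg
Axin2: ccggggccgCCAGCAGCCGGCggggggcag
Lef1: ctccccaccCCTCCAGCAGGCagccaagga
The Sp5 word lies 104 to 98 bases before the RefSeq start and the Dkk1 word 117 to 111 bases before it. The GENCODE M21 model of Dkk1 starts further upstream, so there the word falls inside the first exon. Over all 32851 windows of the same length, 3.21% held CTTTGAT, 4.46% held CTTTGAA and 7.17% held the CTCF core. A match describes letters only and shows no binding.

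Degradation of CTCF was asked first. After 12 h of IAA, Dkk1, Sp5, Lef1, Axin2, Notum and Tcf7 were higher and Cdx1 was lower, and the same 7 names were called at 24 h. A gene was called when the adjusted p of a limma fit over all tested genes lay under 0.05. At 12 h 7 of the 9 tested members were called, where 17.8% of all genes tested were called. At 24 h it was again 7 of 9, where 22.5% of all genes were called. The median size of the members' log2 differences was 1.03 at 12 h, against 0.21 over all genes, and 0.99 against 0.23 at 24 h. The members include Dkk1, chosen for its rise in these libraries, so the medians are description only. In bulk RNA a change in the share of cells that express a gene and a change in RNA per cell cannot be told apart.

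**Figure D1:**
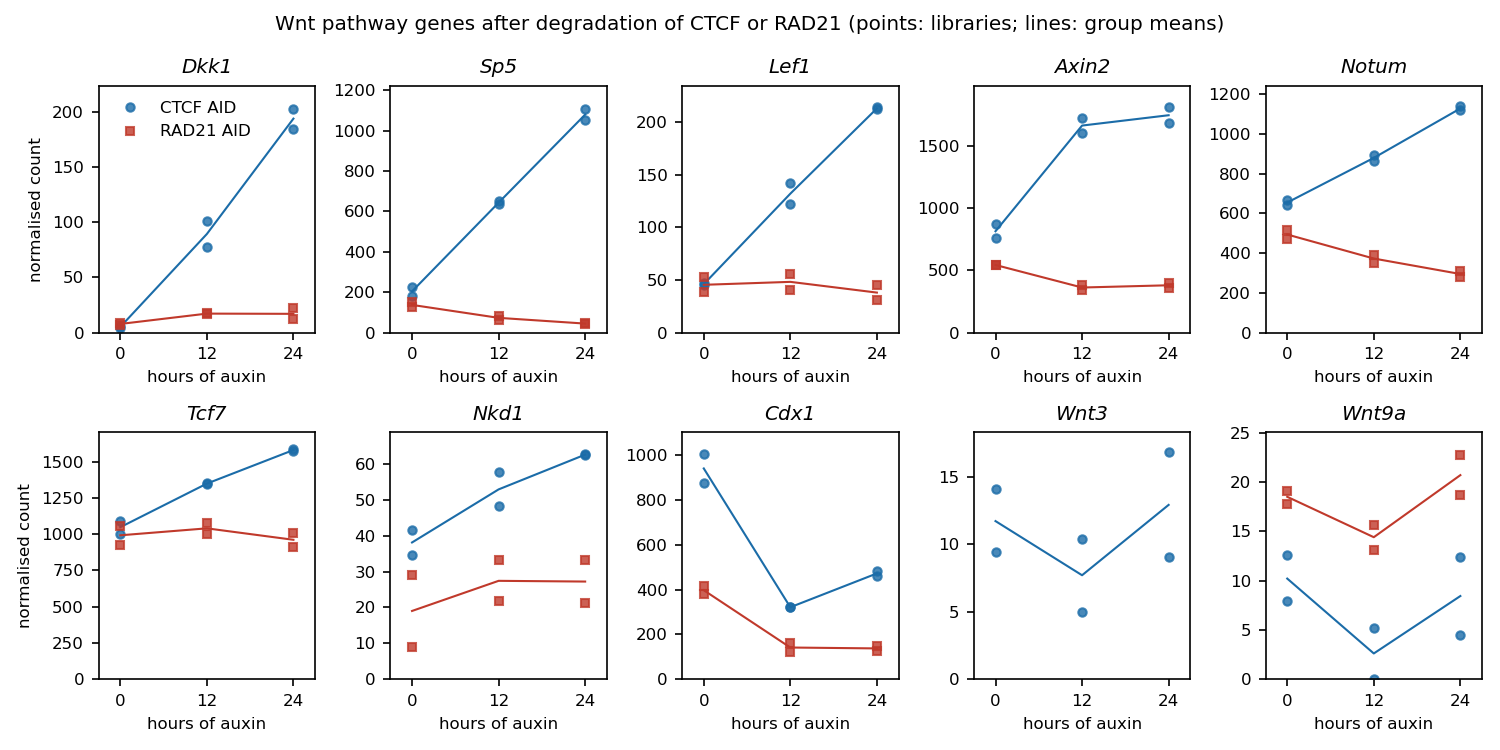
Normalised count (vertical axis, from 0) against hours of auxin for the 10 genes in CTCF AID (circles) and RAD21 AID (squares) cells; points are libraries and lines join group means. In CTCF AID cells Dkk1 climbs from 5.16 to 194, while in RAD21 AID cells Sp5 falls from 137 to 44.5; Wnt3 is not listed for RAD21 AID.

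Dkk1 (ENSMUSG00000024868.8, chromosome 19, 30545863 to 30549665, minus strand) stood at 4.18 and 6.14 normalised counts at 0 h. At 12 h of IAA it was 77.5 and 101, and at 24 h 203 and 185. The libraries of the 3 times did not overlap, and Dkk1 moved from the bottom 2% of the table's genes (percentiles 1.2 and 1.8) to the middle of the table (41.5 and 39.8). It passed the filter on low values (a table mean of at least 10) only through the treated libraries. The difference on the log2(value + 1) scale was 3.88 (SE 0.28) at 12 h and 5.00 (SE 0.28) at 24 h. This gene was chosen for that rise, so no test is given.

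Sp5 (ENSMUSG00000075304.2, chromosome 2, 70474923 to 70477729, plus strand), a zinc finger factor that tempers Wnt target activation, read 226 and 182 at 0 h. It read 649 and 636 at 12 h and 1050 and 1109 at 24 h. Both treated times lay above both 0 h libraries, with log2 differences of 1.66 (SE 0.12, limma adjusted p = 0.00025) and 2.41 (SE 0.12, adjusted p = 5.61e-05). Lef1 (ENSMUSG00000027985.14, chromosome 3, 131110471 to 131224356, plus strand), a nuclear partner of β-catenin, had 44.8 and 47.2 at 0 h, 122 and 142 at 12 h, and 214 and 212 at 24 h. Its differences were 1.50 (SE 0.17, limma adjusted p = 0.00171) and 2.19 (SE 0.17, adjusted p = 0.000273). For Sp5 and Lef1 the 24 h libraries lay above the 12 h libraries.

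Axin2 (ENSMUSG00000000142.15, chromosome 11, 108920349 to 108950783, plus strand) had 759 and 869 at 0 h. It reached 1607 and 1720 at 12 h and 1680 and 1813 at 24 h. The rise was 1.03 on the log2 scale at 12 h (SE 0.08, limma adjusted p = 0.000451), and the 12 h and 24 h libraries overlapped. Notum (ENSMUSG00000042988.10, chromosome 11, 120653788 to 120661175, minus strand) went from 643 and 668 to 897 and 862, then to 1140 and 1119. Its difference was 0.42 (SE 0.07, limma adjusted p = 0.00658) at 12 h and 0.78 at 24 h (adjusted p = 0.000414). Tcf7 (ENSMUSG00000000782.16, chromosome 11, 52252371 to 52283014, minus strand), another TCF/LEF factor, went from 1095 and 1004 to 1348 and 1353, then to 1577 and 1588. Its differences were the smallest of the 6 rises, 0.36 (SE 0.06, limma adjusted p = 0.00968) and 0.59 (adjusted p = 0.00107). At 12 h the calls of Tcf7 and Notum depended on single libraries: Tcf7 was lost without 0 h library 2, 12 h library 1 or 12 h library 2 (adjusted p = 0.0599, 0.0602 and 0.0611), and Notum without 12 h library 1 (adjusted p = 0.0525).

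Exons of Axin2, Lef1 and Notum overlap antisense genes of the annotation (Gm11670 for Axin2, Gm43352 for Lef1, Notumos and Myadml2os for Notum). How strand was used in counting is not given in the sources used here, so reads of these genes and their antisense partners may be mixed.

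Cdx1 (ENSMUSG00000024619.8, chromosome 18, 61018862 to 61036199, minus strand), a homeobox factor of the early posterior embryo, moved the other way. It had 878 and 1005 at 0 h, 321 and 321 at 12 h, and 460 and 483 at 24 h. The fall was -1.54 on the log2 scale at 12 h (SE 0.10, limma adjusted p = 0.000183) and -0.99 at 24 h (adjusted p = 0.000662). The 24 h libraries lay above the 12 h libraries without overlap, but that step was not called (limma log2 difference 0.55, SE 0.10, adjusted p = 0.0948).

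Nkd1 (ENSMUSG00000031661.12, chromosome 8, 88521354 to 88594884, plus strand) had 34.6 and 41.6 at 0 h, 48.2 and 57.7 at 12 h and 62.4 and 62.8 at 24 h, and limma called neither treated time against 0 h (adjusted p = 0.233 and 0.0761). Wnt3 (ENSMUSG00000000125.5, chromosome 11, 103774150 to 103817957, plus strand) lay between 4.97 and 16.8 in all 6 libraries. Wnt9a (ENSMUSG00000000126.11, chromosome 11, 59306928 to 59333552, plus strand) lay between 0 and 12.6, and its table mean was too low to be tested (under 10). Wnt3 was called at neither time (limma adjusted p = 0.502 and 0.924). Between 24 h and 12 h no member was called (0 of 9), where 0.146% of all genes were. At that step limma called 20 genes in all and 1929 had an unadjusted p under 0.05, Sp5, Lef1, Notum, Tcf7 and Cdx1 among them.

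Levels were put in order per kilobase of exon, since normalised counts of different genes differ with length. At 0 h Cdx1 was highest at 538 normalised counts per kilobase, then Tcf7 (400), Notum (272), Axin2 (148) and Sp5 (97.2). Nkd1, Lef1, Wnt3, Wnt9a and Dkk1 followed at 8.36, 5.23, 3.81, 3.07 and 2.13, and in that order Wnt3 and Wnt9a, and Wnt9a and Dkk1, had overlapping libraries. At 24 h Tcf7 led (603), followed by Sp5 (514), Notum (469), Axin2 (317) and Cdx1 (270). The levels per kilobase of Dkk1 at 24 h (83.6 and 76.4) stood above those of Lef1 (24.4 and 24.1), which they had been below at 0 h.

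RAD21 degradation gave another pattern. Axin2, Sp5 and Cdx1 were lower at 12 h, and these and Notum at 24 h, while no member was called higher. The count was 3 of 9 tested members at 12 h, where 13.0% of all genes were called, and 4 of 9 at 24 h, where 13.7% were. Between 24 h and 12 h no member was called (0 of 9), where 15.9% of all genes were, and Sp5 and Notum had an unadjusted p under 0.05 by limma. Each of the calls other than Cdx1's depended on single libraries, and the fall of Cdx1 at 12 h was known when the genes were chosen. Summed levels of 5 primitive endoderm markers were 124 and 111 at 0 h. They were 184 and 175 at 12 h and 175 and 155 at 24 h. Other lists moved as well. Mesendoderm sums (Eomes, Gsc, Mixl1) were 378 and 372 at 0 h, 442 and 397 at 12 h and 292 and 286 at 24 h. Fibroblast sums were 34.6 and 34.6, then 44.6 and 54.5, then 66.5 and 111. Neurectoderm sums were 1526 and 1534, then 1743 and 1560, then 1497 and 1490. Krt8, the only listed trophoblast marker, was 216 and 183, then 217 and 191, then 290 and 267. The part of these markers in the differences was not tested.

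Sp5 had 125 and 150 at 0 h, 84.3 and 61.5 at 12 h and 47.4 and 41.6 at 24 h of 5-Ph-IAA. The 3 times did not overlap, and each was lower than the one before. The difference was -0.91 at 12 h (SE 0.23, limma adjusted p = 0.0463) and -1.60 at 24 h (SE 0.23, adjusted p = 0.00739). The 12 h call was lost without any 1 of its libraries: without 0 h library 1 or 2 the adjusted p was 0.109 or 0.192, and without 12 h library 1 or 2 it was 0.0725 or 0.191. It was also lost with only the 2 groups in the fit (adjusted p = 0.0553) and at 24 h without 0 h library 2 (adjusted p = 0.0527).

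Axin2 had 541 and 545 at 0 h, 343 and 380 at 12 h and 361 and 400 at 24 h. All 4 treated libraries lay below both 0 h libraries. Its differences were -0.59 (SE 0.10, limma adjusted p = 0.0142) and -0.51 (SE 0.10, adjusted p = 0.0203). At 12 h the call was lost without 0 h library 1, 0 h library 2 or 12 h library 1 (adjusted p = 0.0677, 0.0738 and 0.0757). At 24 h it was lost without 0 h library 1, 0 h library 2 or 24 h library 1 (adjusted p = 0.083, 0.0935 and 0.0917).

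Cdx1 had 381 and 414 at 0 h, 159 and 122 at 12 h and 124 and 150 at 24 h. The fall was -1.50 (SE 0.17) at 12 h, a value known when the genes were chosen, and -1.54 (SE 0.17) at 24 h. The 24 h difference uses the same 0 h libraries as that known value, so no test is given. The 12 h and 24 h libraries overlapped. Notum fell from 469 and 519 to 281 and 308 at 24 h (limma log2 difference -0.74, SE 0.11, adjusted p = 0.00793), a call lost without 0 h library 2 (adjusted p = 0.0535). At 12 h it had 353 and 393 (log2 difference -0.40, adjusted p = 0.057).

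Dkk1 had 8.91 and 6.75 at 0 h in the RAD21 AID cells, 17.8 and 16.6 at 12 h, and 22 and 11.9 at 24 h. Both treated times lay above 0 h, by 1.06 (SE 0.46) and 0.98 on the log2 scale. The 0 h mean of 7.83 lay under the filter on low values, which Dkk1 passed only through the treated libraries. No test is given, and its uncalled place in the counts carries no weight. Lef1 libraries overlapped at all times, between 30.9 and 55.6, as did those of Tcf7, between 911 and 1078. Nkd1 was 29.1 and 8.91 at 0 h, a spread wider than its later values. Wnt9a lay between 13.1 and 22.7. The CTCF AID and RAD21 AID tables were normalised separately, so the difference between the 2 degradations was not tested.

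**Figure D2:**
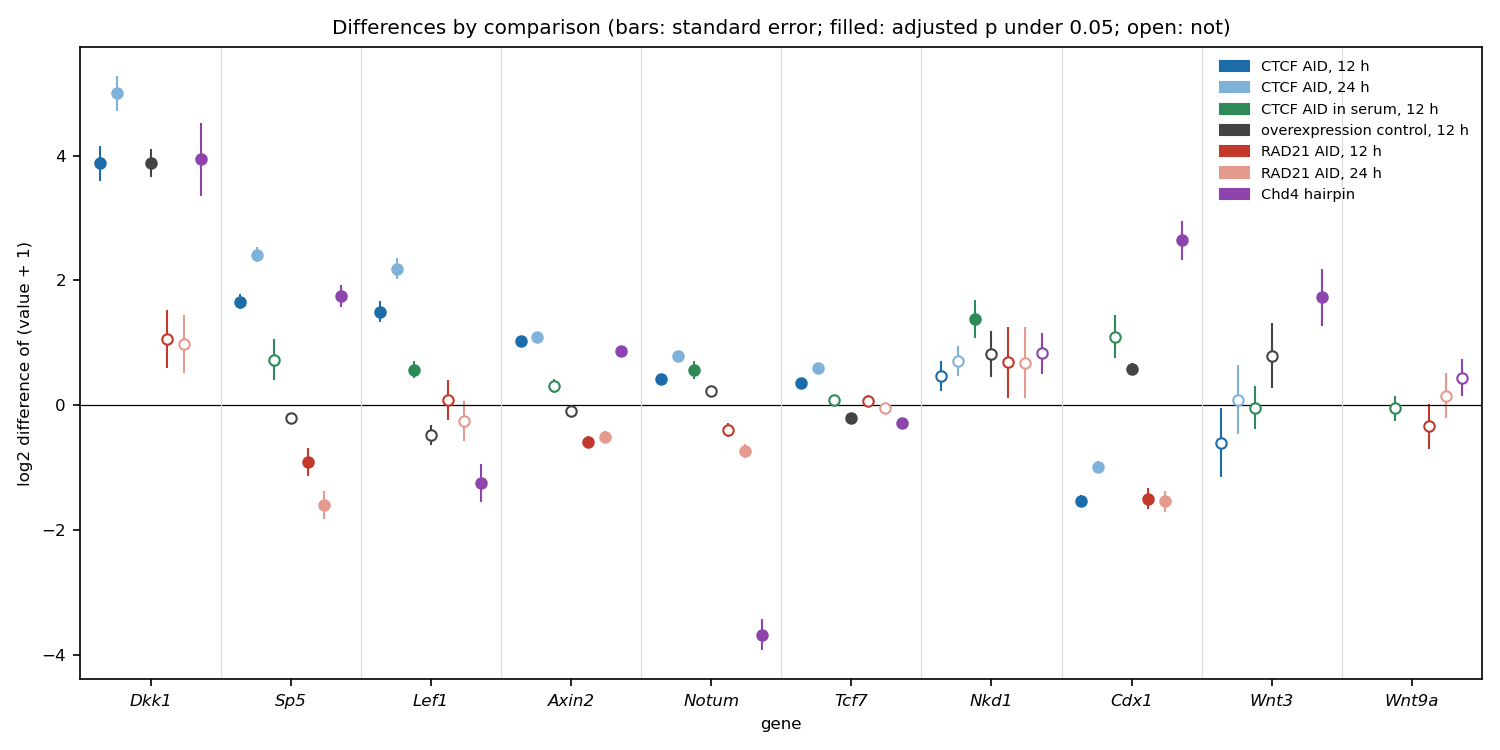
Log2 difference of (value + 1) on the vertical axis for each gene in 7 comparisons; bars are standard errors, filled points were called at an adjusted p under 0.05 and open points were not. Axin2, Sp5 and Notum lie above 0 in the CTCF AID time course and below 0 in RAD21 AID cells, while Cdx1 lies below 0 in both. In the overexpression control Axin2 and Sp5 lie below 0, and Notum and Cdx1 above it. In serum all of these genes lie above 0.

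In the serum condition, 12 h of IAA raised Lef1, Nkd1 and Notum, 3 of 9 tested members, where 17.0% of all genes were called. Dkk1 is not listed in that table. Lef1 went from 104 and 115 to 172 and 154 (limma log2 difference 0.57, SE 0.14, adjusted p = 0.0343). Nkd1 went from 17.3 and 30.1 to 55.7 and 66.6 (log2 difference 1.38, SE 0.31, adjusted p = 0.025). Notum went from 148 and 128 to 216 and 190 (log2 difference 0.56, SE 0.14, adjusted p = 0.0337). For each of the 3 the libraries of the groups did not overlap. Summed levels of 3 listed mesendoderm markers (T, Eomes and Mixl1) were 65.1 and 91.9 at 0 h and 169 and 171 at 12 h, and those of the 8 embryonic stem cell markers 67832 and 68030 against 57280 and 58213. Their part in these differences was not tested.

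These 3 calls rested on single libraries. Without 12 h library 1 none was called (adjusted p = 0.19 for Lef1, 0.115 for Nkd1 and 0.196 for Notum), and without 12 h library 2 none was either (0.116, 0.166 and 0.107). Lef1 and Nkd1 were also lost without 0 h library 1 (adjusted p = 0.103 and 0.0514), and Notum without 0 h library 2 (0.104).

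Cdx1 was low in the serum table, 8.51 and 11.7 at 0 h and 23.2 and 22 at 12 h. Its difference of 1.10 (SE 0.35) was not called (limma adjusted p = 0.0757), though the groups did not overlap. Sp5 was low as well, 17 and 12.7 against 23.2 and 27.3 (limma log2 difference 0.73, adjusted p = 0.172). Axin2 had 215 and 213 at 0 h and 277 and 254 at 12 h (log2 difference 0.31, SE 0.11, adjusted p = 0.09). Tcf7 went from 658 and 696 to 708 and 735. The ligands Wnt3 (23.2 to 38.7 over the 4 libraries) and Wnt9a (50.4 to 58.3) overlapped between groups.

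The hairpin against Chd4 was set against the control hairpin. Cdx1, Sp5, Axin2, Dkk1 and Wnt3 were higher and Notum, Lef1 and Tcf7 were lower, 8 of 10 members. Dkk1 and Cdx1 passed the filter on low values only through the Chd4 hairpin libraries, so their places in the count carry no weight. In this comparison 67.4% of all genes were called, and the members' count is read against that share. The median size of log2 difference was 1.49 over the 10 members, Dkk1 and Cdx1 included, against 0.57 over all genes.

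Notum had 551 and 570 with the control hairpin and 56.4 and 32.2 with the Chd4 hairpin, a difference of -3.68 on the log2 scale (SE 0.25, limma adjusted p = 3.24e-05). Cdx1 had 11.2 and 8.25 against 68.9 and 61.9 (log2 difference 2.64, SE 0.31). Its control hairpin mean of 9.72 lay under the filter, so no test is given. Sp5 had 67.2 and 54.2 against 219 and 193 (limma log2 difference 1.75, SE 0.18, adjusted p = 0.000199). For none of the 3 did the libraries of the hairpins overlap.

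Axin2 had 536 and 570 with the control hairpin against 1039 and 986 (limma log2 difference 0.87, SE 0.07, adjusted p = 8.04e-05). Dkk1 was listed at 0 and 1.18 against 25.7 and 18.1. Its difference, given without a test, was 3.94 (SE 0.59) and became 2.50 with a pseudocount of 4 and 2.18 after quantile normalisation. Tcf7 had 1768 and 1833 against 1412 and 1555 (limma log2 difference -0.28, SE 0.07, adjusted p = 0.00809), a call lost without Chd4 hairpin library 1 (adjusted p = 0.0537).

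Lef1 had 78.5 and 48.5 with the control hairpin and 24.9 and 26 with the Chd4 hairpin (limma log2 difference -1.25, SE 0.30, adjusted p = 0.00945). That call was lost without Chd4 hairpin library 1 (adjusted p = 0.111) or 2 (0.101). Wnt3 had 19 and 8.25 against 34.9 and 56.1 (limma log2 difference 1.73, SE 0.46, adjusted p = 0.013). It was lost without Chd4 hairpin library 1 (adjusted p = 0.085) or 2 (0.168) and after quantile normalisation, where it was 0.98 (adjusted p = 0.081). Nkd1 (40.4 and 61.5 against 67.4 and 118, adjusted p = 0.0634) and Wnt9a (25.7 and 21.2 against 35.9 and 28.8, adjusted p = 0.223) were not called. Summed levels of 5 primitive endoderm markers were 100 and 119 with the control hairpin and 938 and 926 with the Chd4 hairpin, and those of 8 embryonic stem cell markers moved as well (124942 and 123242 against 77462 and 78745). The neurectoderm (1704 and 1685 against 2477 and 2511) and trophoblast sums (71.6 and 87.2 against 422 and 461) were higher too. So were the mesendoderm (318 and 240 against 458 and 492) and fibroblast sums (316 and 240 against 570 and 659). Their part in these differences was not tested.

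**Figure D3:**
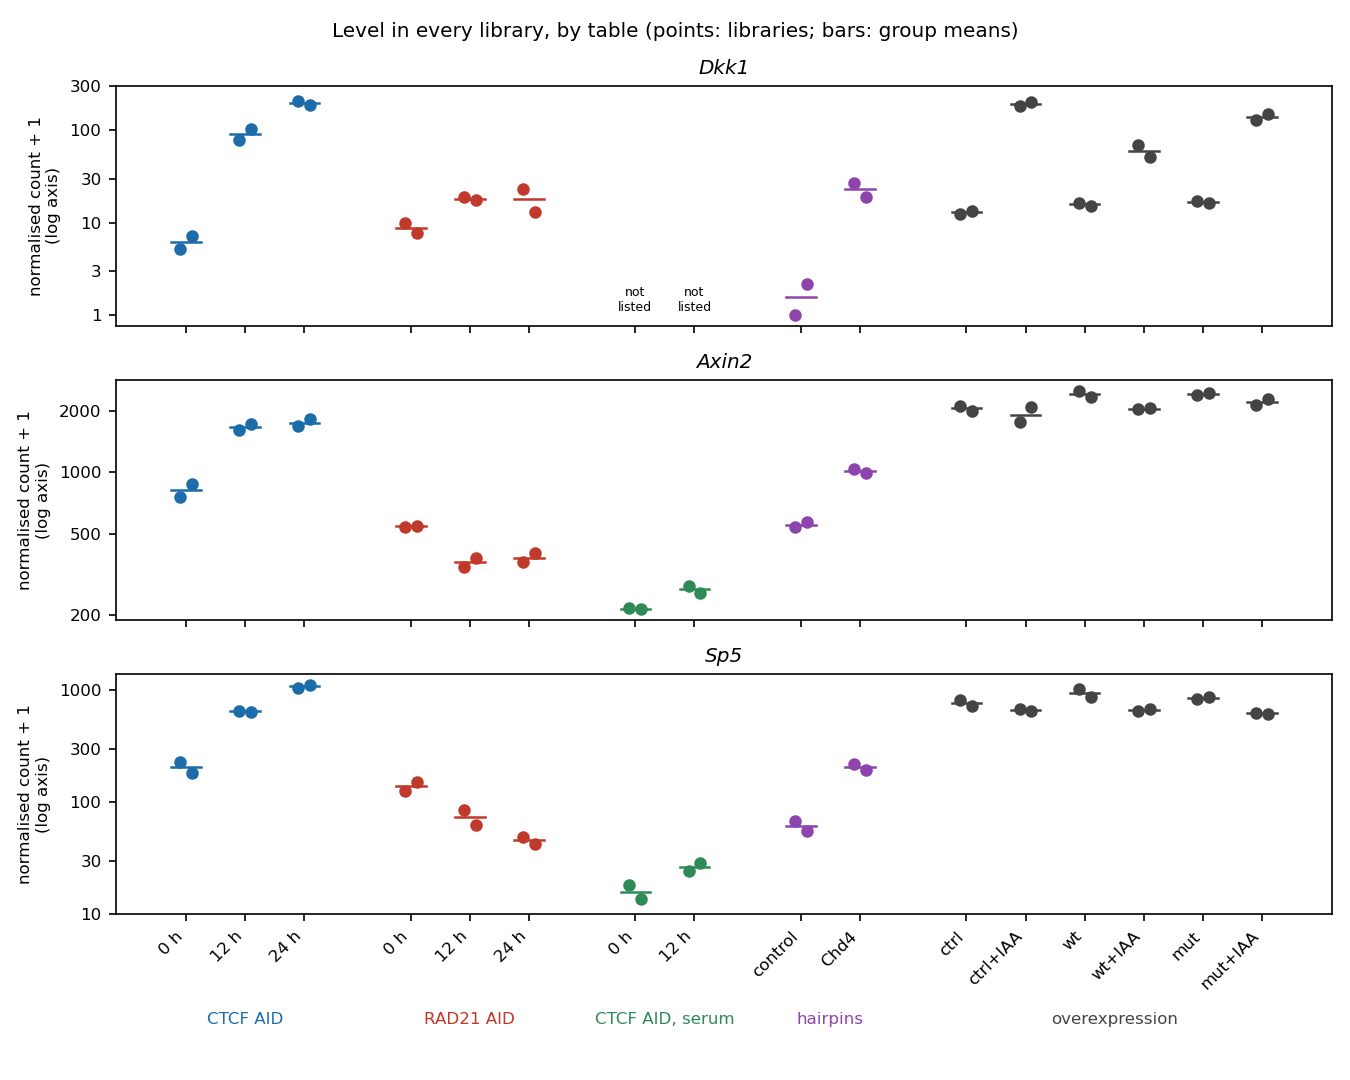
Normalised count + 1 on log axes for Dkk1, Axin2 and Sp5 by group, coloured by table, with Dkk1 not listed in the serum table; points are libraries and bars group means, and levels of different tables were normalised separately. Dkk1 rises with auxin in each CTCF AID set that lists it and with the Chd4 hairpin, while Axin2 and Sp5 are already high in the overexpression set without IAA.

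In the overexpression control, which kept the CTCF degron, 12 h of IAA raised Dkk1 and Cdx1 and lowered Tcf7, 3 of 9 tested members, where 25.3% of all genes were called. The count was also 3 without the 4 libraries whose title and label disagree, an alternative chosen after seeing the data. Dkk1 went from 11.4 and 12.5 to 182 and 198 (log2 difference 3.88, SE 0.23, a value known when the genes were chosen). Cdx1 went from 315 and 317 to 477 and 473 (limma log2 difference 0.58, SE 0.09, adjusted p = 0.000687). Its direction was opposite to that in the CTCF AID time course, from cells with the same degron and auxin. Tcf7 went from 1754 and 1646 to 1506 and 1426 (limma log2 difference -0.21, SE 0.05, adjusted p = 0.0138). That call was lost without control library 1 (adjusted p = 0.0979) or IAA library 2 (0.0994) and with only the 2 groups in the fit (0.0516).

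Axin2, Sp5 and Lef1 were not called there. Axin2 had 2108 and 1990 without IAA and 1748 and 2076 with it, overlapping libraries (limma log2 difference -0.10, adjusted p = 0.329). Sp5 had 809 and 725 against 678 and 645 (log2 difference -0.21, SE 0.08, adjusted p = 0.0928). Lef1 had 206 and 158 against 138 and 121 (limma log2 difference -0.48, SE 0.16, adjusted p = 0.0547). Without IAA these cells already read 2049 ± 83.7 (SD, n = 2) for Axin2 and 767 ± 59.1 for Sp5, where the CTCF AID cells at 0 h read 814 ± 77.6 and 204 ± 30.8 in their own table. The 2 tables were normalised separately, so these levels are side by side only. Notum (1101 and 919 against 1201 and 1149), Nkd1 (21.8 and 20.9 against 32.8 and 44.8) and Wnt3 (9.61 and 9.41 against 15.7 and 19) were not called, though for each the IAA libraries lay above the untreated ones. Wnt9a is not listed. Summed levels of 2 listed neurectoderm markers (Nes and Sox1) were 810 and 851 without IAA and 1279 and 1247 with it, and those of 4 listed primitive endoderm markers 64.4 and 42.4 against 107 and 121. The mesendoderm sum was 312 and 281 against 418 and 386, and the trophoblast sum 192 and 171 against 130 and 123. Their part in these differences was not tested.

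With added wild-type CTCF, IAA raised Dkk1 and lowered Sp5, Lef1, Tcf7 and Axin2, 5 of 9 members, where 21.4% of all genes were called. Dkk1 had 15.5 and 14.2 without IAA and 67.6 and 50.5 with it (log2 difference 1.91, SE 0.23). Lef1 fell from 192 and 184 to 109 and 90.6 (limma log2 difference -0.91, SE 0.16, adjusted p = 0.00287) and Sp5 from 1022 and 873 to 650 and 679 (log2 difference -0.51, SE 0.08, adjusted p = 0.00185). Tcf7 fell from 1763 and 1783 to 1324 and 1382 (limma log2 difference -0.39, SE 0.05, adjusted p = 0.000573). Axin2 went from 2491 and 2336 to 2028 and 2049 (log2 difference -0.24, SE 0.07, adjusted p = 0.0374). That call was lost without any 1 of the 4 libraries, with adjusted p = 0.175 and 0.0622 without library 1 or 2 of the untreated cells and 0.136 and 0.118 without library 1 or 2 of the IAA cells.

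With mutated CTCF, IAA raised Dkk1 and Cdx1 and lowered Sp5 and Tcf7, 4 of 9 members, where 16.2% of all genes were called. Dkk1 had 16.2 and 15.2 without IAA and 127 and 150 with it (log2 difference 3.06, SE 0.23). It was chosen for its rise with IAA in other groups of this set, so no test is given. Cdx1 rose from 302 and 326 to 518 and 461 (log2 difference 0.64, SE 0.09, adjusted p = 0.000764). Sp5 fell from 824 and 862 to 624 and 613 (limma log2 difference -0.45, SE 0.08, adjusted p = 0.00475). Tcf7 fell from 1679 and 1582 to 1399 and 1362 (log2 difference -0.24, SE 0.05, adjusted p = 0.0115), a call lost without library 1 of the untreated cells (adjusted p = 0.0875) or library 2 of the IAA cells (0.0792). Lef1 had 141 and 146 against 96.2 and 106 (limma log2 difference -0.50, adjusted p = 0.0636).

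The neurectoderm list was higher with IAA under both added genes, and the primitive endoderm list under mutated CTCF. The neurectoderm sum was 791 and 850 without IAA and 1158 and 1253 with it under wild-type CTCF, and 843 and 862 against 1280 and 1335 under mutated CTCF. The primitive endoderm sum was 93.8 and 61.1 against 78.8 and 67.4 under wild-type CTCF, overlapping libraries, and 59.2 and 58.1 against 169 and 201 under mutated CTCF. The mesendoderm sum was 394 and 388 against 273 and 274 under wild-type CTCF, and 324 and 282 against 352 and 357 under mutated CTCF. The trophoblast sum was 259 and 272 against 154 and 156 under wild-type CTCF, and 218 and 201 against 191 and 190 under mutated CTCF. The part of these markers in the differences was not tested.

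**Figure D4:**
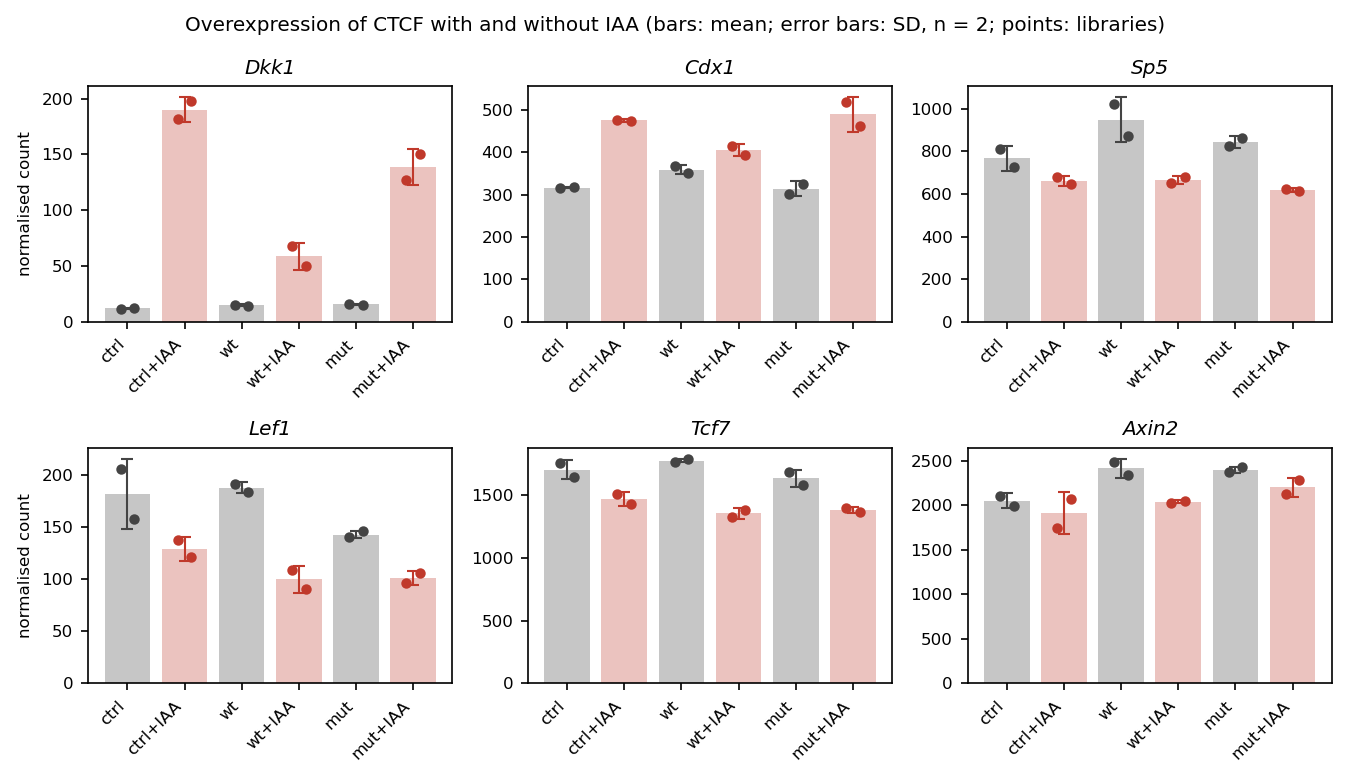
Normalised count (vertical axes from 0) of 6 genes in the 6 groups of the overexpression set; bars are means, error bars SD with n = 2, points libraries, red with IAA and grey without. Dkk1 with IAA stands at 190 in the control, 59 under added wild-type CTCF and 139 under the mutated form.

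The effect of IAA was compared between the added genes by an interaction term. For Dkk1 the effect with wild-type CTCF was smaller than in the control by 1.97 on the log2 scale (interaction -1.97, SE 0.33), a value known when the genes were chosen. It was the 1 member of 9 called, where 1.41% of all genes were called, and nothing is read from that count. The call was lost without control library 1, IAA control library 1, IAA control library 2 or IAA wild-type CTCF library 2, where the interaction lay between -2.03 and -1.76. With mutated CTCF the interaction of Dkk1 was -0.81 (SE 0.33) and was not called. No member was called for mutated CTCF (0 of 9), where 1.64% of all genes were. Of the other 8 members none had an unadjusted p under 0.05 by limma for mutated CTCF. For wild-type CTCF, Cdx1, Sp5 and Tcf7 did have one, though none of them was called. The wild-type interaction was -0.30 (SE 0.12) for Sp5 and -0.18 (SE 0.08) for Tcf7. Cdx1 had 367 and 351 without IAA and 415 and 394 with it under wild-type CTCF, a difference of 0.17 (limma adjusted p = 0.189) against 0.58 in the control. The interaction of -0.41 (SE 0.12) was not called (adjusted p = 0.188).

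Without IAA, the added genes left the members uncalled. None of 9 differed with wild-type CTCF, where 0.897% of all genes were called, and none of 9 with mutated CTCF, where 5.55% were. Axin2 and Sp5 differed by 0.24 and 0.30 on the log2 scale with wild-type CTCF (limma adjusted p = 0.22 and 0.168), and Axin2 by 0.23 with mutated CTCF (adjusted p = 0.102). These were the members with an unadjusted p under 0.05. Over all genes 1716 and 2861 had such a p.

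A wider list of 96 other pathway genes was grouped by role. In the CTCF AID cells 14 were higher and 6 lower of 58 tested at 12 h, a share of 34.5% where 17.8% of all genes were called, and 18 higher and 8 lower at 24 h, 44.8% against 22.5%. Ligands were nearly absent from the table: 2 of 21 were tested. Of 15 receptors tested at 24 h, 5 were higher (Lrp6, Ryk, Fzd5, Lgr4 and Fzd10) and 4 lower (Fzd3, Ror2, Fzd9 and Fzd4). Of 12 cytoplasmic components, Ctnnb1 (β-catenin), Gsk3b, Dvl3, Tnks and Tnks2 were higher and Btrc was lower. The primitive streak factor T rose from 7.87 ± 1.5 (SD, n = 2) to 138 ± 11.1 (log2 difference 3.98, SE 0.30). With so low a 0 h mean, T passed the filter on low values only through the treated libraries. No test of T is given here, and its place in these counts carries no weight. Myc rose from 45.1 ± 3.31 to 181 ± 27.8 (limma log2 difference 1.97, SE 0.19, adjusted p = 0.000623) and the secreted inhibitor Sfrp2 from 328 ± 17.3 to 775 ± 71.8 (log2 difference 1.24). Summed levels of 4 listed mesendoderm markers, T among them, were 220 and 201 at 0 h and 338 and 323 at 24 h. Without T they were 212 and 195 at 0 h and 208 and 177 at 24 h, overlapping libraries, so the rise of the sum was that of T. The other markers did not all stay level. Gsc went from 73.1 and 66.2 to 105 and 108, Eomes from 119 and 118 to 92.3 and 54, and Mixl1 libraries overlapped.

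**Figure D5:**
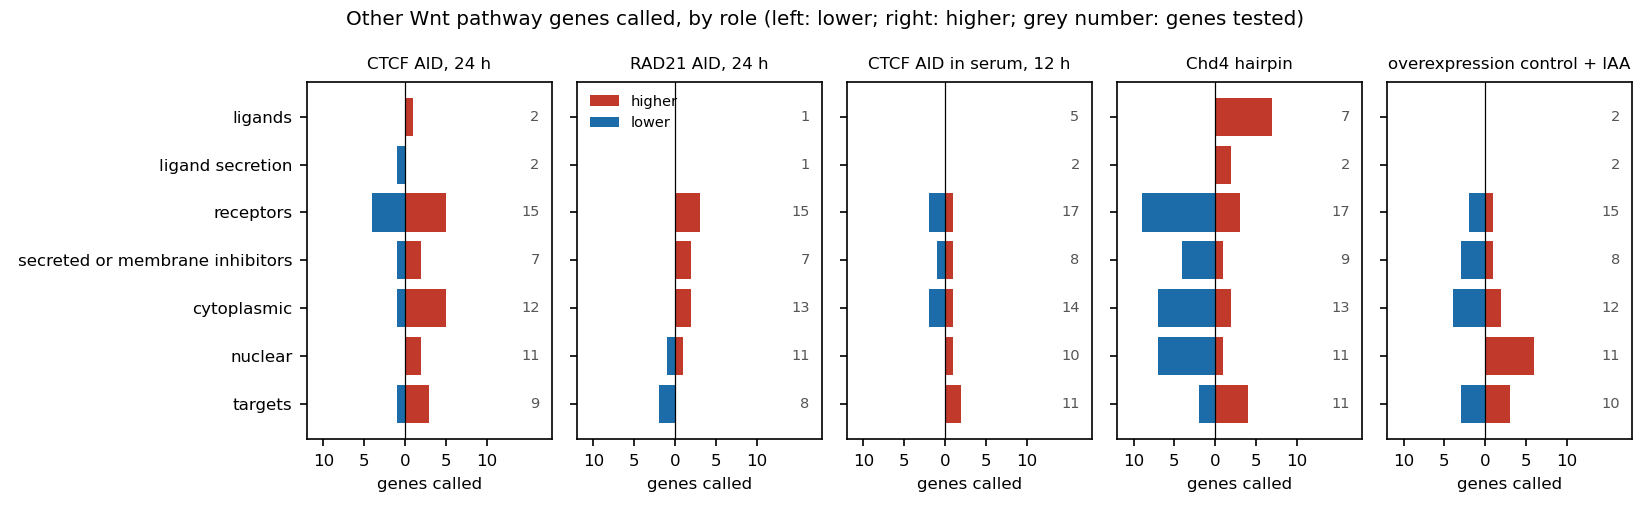
Number of the 96 other pathway genes called lower (bars to the left) or higher (bars to the right) by role in 5 comparisons; grey numbers are genes tested. With the Chd4 hairpin 7 of 7 ligands tested, out of 21 in the list, were higher and 9 of 17 receptors lower. Ligands could pass the filter on low values through the Chd4 hairpin libraries alone.

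In RAD21 AID cells 5 of the wider list were higher and 2 lower of 56 tested at 12 h (12.5%, against 13.0% of all genes), and 8 and 3 at 24 h (19.6%, against 13.7%). The co-repressor Tle3 rose from 2806 ± 0.928 to 4373 ± 41.6 at 12 h (limma log2 difference 0.64, SE 0.03, adjusted p = 0.000245). The cell cycle gene Ccnd1, a Wnt target in other tissues, fell from 3326 ± 12.8 to 2275 ± 61.2 at 24 h (log2 difference -0.55, SE 0.04, adjusted p = 0.00071). In serum 6 were higher and 5 lower of 67 (16.4%, against 17.0% of all genes), among them Sfrp2, which rose from 483 ± 26.8 to 971 ± 24.8, and the receptor Ror2, which fell from 147 ± 3 to 46.9 ± 1.53 (limma log2 difference -1.62, SE 0.16, adjusted p = 0.000828).

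With the Chd4 hairpin 20 of 70 were higher and 29 lower (70%), where 67.4% of all genes were called. Of 21 ligands 7 were tested, and all 7 were higher. A ligand near 0 with the control hairpin could pass the filter through the Chd4 hairpin libraries alone, so nothing is read from that count. Wnt7b, 1 of the 7, went from 21.2 ± 5.25 to 247 ± 14.6 (limma log2 difference 3.50, SE 0.23, adjusted p = 2.81e-05). Of 17 receptors 9 were lower, among them Fzd7, from 778 ± 1.06 to 161 ± 6.93 (log2 difference -2.27, SE 0.10, adjusted p = 5.53e-06). In the overexpression control IAA raised 13 and lowered 12 of 60 (41.7%, against 25.3% of all genes). The raised genes included 6 of 11 nuclear components: Tle2, Tle3, Tle4, Tcf7l1, Tcf7l2 and Bcl9l. Sfrp2 rose there too, from 271 ± 10.5 to 626 ± 7.75 (limma log2 difference 1.21, SE 0.09, adjusted p = 7.30e-06), and the activin antagonist Fst fell from 234 ± 24.8 to 57.9 ± 8.77 (log2 difference -2.00). T, which rose in the CTCF AID time course, fell with IAA in all 3 overexpression settings. Its mean went from 91.2 to 44.3 in the control (limma log2 difference -1.02, SE 0.19, adjusted p = 0.00253), from 144 to 34.3 under wild-type CTCF (-2.04, adjusted p = 5.50e-05) and from 63.2 to 30 under mutated CTCF (-1.05, adjusted p = 0.00354).

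The nearest listed protein-coding gene on each side of each member was examined in the same fits. In the CTCF AID cells 5 of 20 such neighbours were called at 12 h, 2 higher and 3 lower, where 17.8% of all genes were called. Pdgfrb, 8.95 kb from Cdx1, fell from a mean of 212 to 76.1 (limma log2 difference -1.47, adjusted p = 0.00283), while Slc6a7, 22 kb away on the other side, rose from 77.4 to 133 (log2 difference 0.78, adjusted p = 0.0361). Gldc, 374 kb from Dkk1, rose from 1741 to 2687 (limma log2 difference 0.63, adjusted p = 0.000339), and Cstf2t, 533 kb away on the other side, was not called (adjusted p = 0.731). No neighbour of Axin2, Lef1, Sp5, Notum, Tcf7 or Wnt9a was called at 12 h.

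The genes whose pattern was most like that of Dkk1 were sought by Pearson correlation of log2 values, centred within each table, over the 28 libraries of the 4 tables that list Dkk1 and 12760 genes. Atg13 (r = 0.932), an autophagy factor, came first, then Tgfbr3 (0.930), a TGF-β co-receptor, Igfbp5 (0.912), Cyp1a1 (0.911) and Elf1 (0.909). These r describe libraries that share tables and treatments and carry no p. Tgfbr3 read 395 and 395 at 0 h, 996 and 996 at 12 h and 1474 and 1493 at 24 h in the CTCF AID cells. Among the members r with Dkk1 was 0.67 for Nkd1, 0.52 for Axin2, 0.47 for Sp5, 0.18 for Cdx1, 0.05 for Lef1, -0.03 for Tcf7 and -0.29 for Notum.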

How the data were processed

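The authors deposited 5 tables of normalised counts, a signal that is never negative, per the labels and file headers. The submitters' processing notes name Trim Galore, Bowtie2, STAR, RSEM, DESeq2 and mm10 without roles, and the scaling is not given in the sources used here. Values were not whole reads and the table totals are of normalised counts, so read depth is not known. Groups follow the titles. The last line of the CTCF AID table was incomplete and left out.

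Genes with a table mean of at least 10 entered a linear model of log2(value + 1), run by limma 3.58.1 under R 4.3.3 (all groups of a table together, eBayes with a trend), with Benjamini-Hochberg adjustment over all genes of the table and calls at adjusted p under 0.05. Log2 differences understate the change of low genes. The code was tested on simulated data. Members and lists were chosen with earlier results of these data known. Named genes are the 10 members, the largest called genes of the wider list (at most 3 a comparison, mean at least 100), the nearest neighbours and the 5 genes most like Dkk1. Alternatives were another pseudocount, filter, scaling, a replicate block, fewer groups and leaving out each library. Positions are from GENCODE M21 (GRCm38), where at least 99.9% of identifiers were found.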

Additional observations from a re-analysis of the deposited data

Results flagged for a closer look

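Effects of auxin on the same gene differed between sets of libraries for several members. The smaller effect of IAA on Dkk1 with wild-type CTCF than in the control (interaction -1.97) was known when the genes were chosen and is given as description. In the other cases every library of a set lay on the opposite side of its control from those of the other set. The sets were normalised separately, so those differences were not tested. Several of the effects listed were not called within their own set. These were Lef1 and Sp5 in the overexpression control, Cdx1, Sp5 and Tcf7 in serum, and Notum at 12 h in RAD21 AID cells.

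At 12 h of IAA, the CTCF AID time course and the overexpression control went opposite ways for Lef1 (log2 differences 1.50 and -0.48), Sp5 (1.66 and -0.21), Cdx1 (-1.54 and 0.58) and Tcf7 (0.36 and -0.21). Cdx1 also went opposite ways in the time course (-1.54) and in the serum condition (1.10). Serum and the overexpression control differed in sign for Lef1 (0.57 and -0.48), Sp5 (0.73 and -0.21) and Tcf7 (0.09 and -0.21).

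CTCF and RAD21 degradation went opposite ways for Axin2 (1.03 and -0.59 at 12 h, 1.10 and -0.51 at 24 h), Sp5 (1.66 and -0.91, then 2.41 and -1.60) and Notum (0.42 and -0.40, then 0.78 and -0.74).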

How the results depend on the processing

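When each called member was refitted under the alternatives, 433 refits stayed called, 48 did not and none changed sign. Leaving out 1 library moved the number of members called between 1 and 2 for RAD21 at 12 h, 1 and 4 for RAD21 at 24 h, 0 and 2 in serum, 5 and 9 with the Chd4 hairpin and 0 and 1 for the interaction of wild-type CTCF. A filter at a mean of 100 left 4 members called with the Chd4 hairpin, where fewer members were tested, and 0 for that interaction, where Dkk1 was not tested. When the fit held no other groups, the interaction count was also 0, and the cause was not tested. When a lone library was left in a group it was assumed to vary like the others.

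The replicate numbers did not pair the libraries: deviations of same-numbered libraries correlated between -0.16 and 0.15. A replicate block ended 1 call, that of Sp5 at 12 h in RAD21 AID cells (log2 difference -0.91, limma adjusted p = 0.07), and no other member's; it raised the count with the Chd4 hairpin to 9. In serum a replicate block with crossed numbers, chosen after seeing the data, left 2 members called. For the effects of IAA with wild-type or mutated CTCF, leaving out the 4 libraries with disagreeing labels gives no value. With groups taken from the treatment labels, wild-type against control without IAA again had 0 members called. The normalised counts give no read depth, so the smallest detectable change of Wnt3 and Wnt9a is unknown.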
